A study of Homo sapiens with 6 samples.

Results

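This report describes 177 of the 24350 GI-numbered probes on an Illumina bead array (0.727%) that were detected in both of 2 RAS-transformed Caco-2 lines and in neither sample of the control line. Caco-2 is an established human colon adenocarcinoma line whose cells form an epithelial layer like that of the intestine. The members were selected on measured detection and signal. A probe was a member if its detection score was at least 0.99 on all 4 RAS arrays and below 0.99 on both control arrays, and if its mean deposited signal over the RAS arrays was at least 120 intensity units. The score runs from 0 to 1 and ranks a signal against negative controls. Without the signal minimum 298 probes had this detection pattern.

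The 3 groups were Ha-RAS transformed Caco-2 cells, Ki-RAS transformed Caco-2 cells and control Caco-2 cells, each with 2 arrays of separate samples named A and B. The cells had been grown to below confluence with no treatment. The labels call the Ki-RAS samples and Ha-RAS sample B rapidly growing, and add an EMT phenotype (epithelial-to-mesenchymal transition) for Ha-RAS sample B. They call the control line an adenocarcinoma. The design text calls the samples of a line biological replicates, and the sources used here do not say how they were separated. How the RAS genes were introduced, and whether a line is a single clone, is not said in them either. There was 1 line per RAS isoform, so the comparisons are between lines, and p-values measure the spread between samples of a line.

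RAS proteins are small GTPases that switch between an inactive GDP-bound and an active GTP-bound state and pass growth factor signals on to kinase cascades such as RAF, MEK and ERK. Ha-RAS and Ki-RAS are nearly alike in the part that binds nucleotides and effectors and differ mainly in the C-terminal tail that anchors them to membranes. A transcript detected in both transformed lines and not in the control is one whose level lay above the array's detection limit in each of them and below it in the control. None of the probe IDs matched an entry in the RefSeq gene table (0 matches) and the array files hold no symbols, so transcripts are given by probe ID, no gene lists or cell type markers could be read, and no sequence is shown. These are bulk RNA samples, in which fewer cells with a transcript and less of it per cell cannot be told apart.

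The arrays detected 9245 to 10192 probes each. The lowest signal that counted as detected was 83.5 to 88.8 intensity units, depending on the array, which is the scale against which the values below can be read. A median of 41 to 43 beads stood behind a member's signal.

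Detection chose the members, so their levels against control are a description with no test. The control signals of the members lay between 49.3 and 83.4 on single arrays, with a median line mean of 69.15. Probes undetected on both control arrays had a median of 63.6. In Ha-RAS cells the line means of the members ran from 91.1 to 3893 with a median of 185.4 (quartiles 132.5 and 273.3), and in Ki-RAS cells from 87.2 to 3032 with a median of 152.7 (quartiles 112.1 and 282.65). Most were thus dim on the scale above. A line mean over 500 was reached by 25 members in Ha-RAS cells, by 19 in Ki-RAS cells and by 6 in both.

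How clearly a member was undetected in control cells varied. There, 65 of the 177 members had a score of at least 0.95 on 1 or both arrays, just short of detection, while 14 had scores under 0.5 on both. For a transcript undetected in control cells the rise can only be set against the lowest detected level, and the result depends on the background. On background-corrected, normalized values the fold over that level was at least 2 in both RAS lines for 83 members, at least 4 for 40 and at least 8 for 13. On the deposited signals, which still hold any background, these counts were 48, 14 and 5. The median fold over members was 3.17 in the Ha-RAS line and 3.14 in the Ki-RAS line after correction, and 2.21 and 1.82 on the deposited signals. Both lines are set against the same control arrays. Below, "at least" refers to the deposited signals, and the corrected fold follows it. The deposited signals are not scaled between arrays. For some dim members the corrected fold was the lower value, and "at least" is not used there. In the fit over all 10848 probes tested, 177 members were called higher in Ha-RAS than in control cells (background 28.6%), 175 higher in Ki-RAS than in control cells (background 27.9%), and 175 higher in both (background 11.8%), at adjusted p below 0.05. The rule used the same contrasts and nothing is read from these counts.

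The brightest members by mean RAS signal are described first. This ranking favours members very bright in either RAS line alone, so a difference between the lines is partly built in. How unequal the RAS lines were is thus not read from these members. GI_6006015-S, first by mean RAS signal, had signals of 4194.5 and 3591.9 on the Ha-RAS arrays, 316 and 345.9 on the Ki-RAS arrays, and 62.2 and 73.4 on the control arrays. GI_42476152-S, the second, was the reverse, with 445.1 and 420.6 in Ha-RAS, 3206 and 2857.9 in Ki-RAS, and 74.7 and 52.4 in control cells. Both were far above control in each line, and the RAS lines did not overlap for either. No share of probes without overlap was computed over all probes. Compared with control, GI_6006015-S was at least 46.5-fold higher in the Ha-RAS line (92.9-fold after correction) and at least 3.96-fold in the Ki-RAS line (8.63-fold after correction). For GI_42476152-S these values were 5.18-fold (9.12-fold after correction) and 36.2-fold (85.8-fold after correction). The rule limited the level in each RAS line but did not use the difference between them, which was tested with limma, with Benjamini-Hochberg adjustment over all 10848 probes. It was 10.8-fold for GI_6006015-S (log2 difference 3.43 ± 0.17 SE, n = 2 arrays per line, adjusted p = 9.22e-08) and 9.41-fold the other way for GI_42476152-S (log2 difference -3.23 ± 0.20 SE, adjusted p = 4.93e-07).

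Over the whole set, 139 of the 177 members (78.5%) differed between Ha-RAS and Ki-RAS cells at adjusted p below 0.05. The background was 59.7% of all probes tested, and 58.8% of the 6938 probes detected on all 6 arrays with the same signal minimum. Of the members, 69 were higher in Ha-RAS cells (39%, against 31.6% of all probes tested and 30.6% of those detected on all arrays). The other 70 called members were higher in Ki-RAS cells (39.5%, against 28.1% and 28.2%). These counts include members whose passing of the rule favours a difference. A total of 83 members reached 120 intensity units in 1 RAS line alone (53 in Ha-RAS, 30 in Ki-RAS). They so passed the minimum through the line where they were high, and 77 of them were called (92.8%). Of the 94 members at 120 or more in each line, 62 were called (66%). The background was 56.1% (3482) of the 6204 probes detected on all arrays with the same minimum in each line. Of the full 6938 such probes, 4083 were called. The rest of the 6938 reached 120 in 1 RAS line alone, and they were called more often than the 6204. The 92.8% is thus not to be set against 58.8% and is not read as a trait of the members. The excess over the background in the whole set came largely from the 83, a kind of probe called more often in the background too. The split depended on scaling. It was 82 and 60 with arrays set to a common median, and 82 and 52 with no normalization between arrays, settings that moved the median of all probes tested to 0.30 and 0.36 on the log2 scale in favour of Ha-RAS. Relative to all probes, the members' median difference was -0.06 in the quantile-normalized data and -0.02 under both of these settings.

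Among the 94 members the median size of the difference was 1.70-fold, beside 1.42-fold for the 6204 probes. A called difference of at least 2-fold was found for 33 of the 94 (35.1%, background 20.2%), of at least 4-fold for 16 (17%, background 3.19%) and of at least 8-fold for 7 (7.45%, background 0.613%). By class of mean RAS signal, the 16 members from 120 to under 150 had a median difference of 1.31-fold and the 323 background probes 1.25-fold. From 150 to under 250 the medians were 1.40-fold for 31 members and 1.39-fold for 1534 probes. In these dimmer classes the minimum of 120 in each line leaves little room for a difference, in members and background alike, so nothing is read from their closeness. From 250 to under 500 the medians were 2.04-fold for 30 members and 1.5-fold for 1900 probes. From 500 they were 3.12-fold for 17 members and 1.42-fold for 2447 probes. This class has no upper limit, and brightness was not matched within it. Without the minimum in each line, members and background had medians of 1.76-fold and 1.45-fold from 120 to under 150. From 150 to under 250 these were 2.4-fold and 1.47-fold, with members that passed through 1 line included. The differences between members and background were not tested, and the mean RAS signal that sets the classes is also part of the rule.

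Over all 177 members the median size was 2.10-fold, beside 1.46-fold for the 6938 probes and 1.5-fold for all probes tested, with the 83 members above included. A called difference of at least 2-fold was found for 91 (51.4%, against 26.5% of all probes tested and 23.2% of the 6938), of at least 4-fold for 40 (22.6%, against 7.27% and 4.27%) and of at least 8-fold for 18 (10.2%, against 2.83% and 1.08%). Of the 40, 16 were higher in the Ha-RAS line and 24 in the Ki-RAS line. The background was not split by direction at this size, so no lean is read from these counts. Leaving out the background correction gave 62, 22 and 9 members at the same sizes. Among the 10 brightest members 5 were called higher in each line, and 8 of the 10 differed at least 4-fold. Ranking by the mean over the 4 RAS arrays favours members very bright in 1 line, and no share was computed for equally bright background probes.

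Across the members, the normalized log2 levels of the RAS lines were almost unrelated (r = 0.13 over 177 probes). Arrays of 1 line correlated at r = 0.99 for Ha-RAS and 0.98 for Ki-RAS over the same probes, and the lines correlated at r = 0.83 over the 6938 probes detected on all arrays. These are descriptions across probes that share the same arrays. The members' values were cut at the detection limit in each line and at the signal minimum, which bears on such a coefficient.

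Of the members higher in Ha-RAS cells, GI_25121964-S had the largest difference. It read 2840.2 and 2625.8 in Ha-RAS, 92.6 and 90.9 in Ki-RAS, and 71.4 and 80.1 in control cells. In Ki-RAS cells it was thus within a few units of the detection limit, at least 1.10-fold over control (1.22-fold after correction), against at least 32.7-fold in Ha-RAS cells (63.8-fold after correction). The RAS lines differed 52.1-fold (log2 difference 5.70 ± 0.17 SE, adjusted p = 4.14e-09). Its signals came from 15 to 21 beads, fewer than usual. GI_5453789-S had the same shape, at 2478.5 and 2050.6 in Ha-RAS, 90.2 and 92.1 in Ki-RAS, and 67.3 and 75.1 in control cells. The difference was 43.3-fold (log2 difference 5.44 ± 0.16 SE, adjusted p = 4.14e-09).

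GI_16753209-S, GI_6042201-A and GI_34147546-S followed. GI_16753209-S read 1962.5 and 1873.5 in Ha-RAS, 110.6 and 99.8 in Ki-RAS, and 60.4 and 64.9 in control cells, a 27.1-fold difference between the RAS lines (adjusted p = 9.42e-09). GI_6042201-A read 900.4 and 899.3, 94.5 and 95.9, and 66.9 and 65.5, a 15-fold difference (adjusted p = 1.44e-08). The Ki-RAS values of GI_6042201-A were close to the limit of detection, at least 1.14-fold over control (1.36-fold after correction). Those of GI_16753209-S were somewhat further above it, at least 1.26-fold over control (1.66-fold after correction). GI_34147546-S read 2554.5 and 2274.6 in Ha-RAS cells, 187.9 and 179.8 in Ki-RAS cells, and 77.5 and 67.9 in control cells, and differed 13.6-fold (adjusted p = 5.18e-08). It was well clear of control in both RAS lines, by at least 28.9-fold and at least 2.20-fold (56-fold and 4.12-fold after correction). The median of the 69 members higher in Ha-RAS was 238.25 in Ha-RAS, 104.15 in Ki-RAS and 69.05 in control cells, a median difference between the RAS lines of 2.28-fold (range 1.34 to 52.1).

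Among the members higher in Ki-RAS cells, GI_39725680-S stood first. It read 107.4 and 90.8 in Ha-RAS, 2815 and 1934.5 in Ki-RAS, and 69.6 and 65.7 in control cells. Its Ki-RAS samples were further apart than those of most members (log2 SD 0.38, where the median over members was 0.13), but far above the Ha-RAS values. The difference was 57.8-fold (log2 difference -5.85 ± 0.20 SE, adjusted p = 8.3e-09). The level over control was at least 27.9-fold in Ki-RAS cells (65.6-fold after correction). In Ha-RAS cells it was 1.18-fold on the deposited signals and 1.13-fold after correction, so close to the lowest detected level. GI_19923110-S read 175.6 and 148.4 in Ha-RAS, 2221.6 and 2189.9 in Ki-RAS, and 69 and 65.4 in control cells, a 23.6-fold difference (adjusted p = 8.23e-09). Its Ha-RAS signal was above control by at least 1.93-fold (2.63-fold after correction).

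GI_19747282-S, GI_25777651-S and GI_4557440-S came next. GI_19747282-S read 205.3 and 203.9 in Ha-RAS, 2966.5 and 2713.9 in Ki-RAS, and 82.8 and 76.1 in control cells, where its score of 0.9897 on control A was the highest control score of any member, reached by 6 of them. It differed 21.8-fold between the RAS lines (adjusted p = 1.56e-08). The others were dimmer. GI_25777651-S read 96.1 and 90.3, 458.6 and 471.2, and 72 and 73.8, a 12.5-fold difference (adjusted p = 2.08e-08). GI_4557440-S read 121.7 and 108.8, 689.1 and 671.7, and 83 and 76.3, a 12.4-fold difference (adjusted p = 5.64e-08). In all 5 probes the Ki-RAS arrays lay above every Ha-RAS array. Their choice by the largest called differences favours this, so nothing is read from it. The median of the 70 members higher in Ki-RAS was 125.4 in Ha-RAS, 257.6 in Ki-RAS and 68.55 in control cells, with a median difference of 2.84-fold (range 1.36 to 57.8).

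Few members were bright in both lines. The 6 with line means over 500 in each were GI_31543536-S, GI_7705972-S, GI_34147386-S, GI_37552330-S, GI_37546229-S and GI_23510363-A, of which GI_34147386-S and GI_37552330-S are named after their values were seen. GI_31543536-S read 2275.3 and 2092.4 in Ha-RAS, 1083.6 and 1045.4 in Ki-RAS, and 66.7 and 49.5 in control cells. It was above control by at least 26.1-fold and at least 12.7-fold (51-fold and 30-fold after correction), and the RAS lines still differed 1.70-fold (log2 difference 0.77 ± 0.16 SE, adjusted p = 0.00212). GI_7705972-S leaned the other way, with 1148.1 and 941.5 in Ha-RAS and 1454.3 and 1739.2 in Ki-RAS cells (1.90-fold, adjusted p = 0.00298). Its control values were 83 and 69.9. The Ha-RAS level of GI_34147386-S was 2.09-fold that in Ki-RAS cells, and GI_37552330-S was 1.95-fold higher in Ki-RAS cells (adjusted p = 0.000215 and 0.000529). GI_23510363-A read 749.4 and 742.6 in Ha-RAS, 950.4 and 791 in Ki-RAS, and 76.9 and 73.3 in control cells. Its 1.46-fold difference in favour of Ki-RAS was called (adjusted p = 0.0151) but not with arrays set to a common median (adjusted p = 0.22), with no normalization (0.351), without Ha-RAS sample A (0.107) or without Ki-RAS sample A (0.103).

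The difference between the lines was not called for 38 members. In the quantile-normalized fit their 95% confidence intervals all lay within 2-fold either way, and 14 lay within 1.5-fold. Larger differences are outside these intervals for them while smaller ones are not. The 38 were chosen for not being called, which leaves small differences (at most 1.35-fold). The width of the intervals is thus not read as agreement of the lines. The intervals leave out the choice of scaling, and 13 of the 38 were called with no normalization between arrays. GI_37546229-S was the brightest of the 38, with 1017.4 and 873.4 in Ha-RAS, 682.9 and 738.7 in Ki-RAS, and 78.5 and 73.1 in control cells. Its raw values were higher in Ha-RAS, and the normalized log2 difference was 0.11 (interval -0.24 to 0.47, adjusted p = 0.568). GI_4505010-S read 413.8 and 455.3, 448.9 and 426.5, and 58.9 and 61.6. Its deposited signals overlapped between the RAS lines, and the normalized difference was -0.37 (interval -0.73 to -0.02, adjusted p = 0.0657). It was called with cyclic loess normalization (adjusted p = 0.0363), an offset of 50 (0.0324) and no background correction (0.0302). The members not called had median line means of 189.1 in the Ha-RAS line and 146.35 in the Ki-RAS line.

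The suffix of a probe ID says, by the manufacturer's convention, whether the probe reads a single-transcript gene (S), all isoforms (A) or 1 of several isoforms (I). The members held 143 S probes (80.8%), 21 A probes (11.9%) and 13 I probes (7.34%). Over all GI-numbered probes the shares were 79.1%, 8.96% and 12%, and among probes detected on all arrays with the signal minimum 83.3%, 12.1% and 4.63%. The members' shares of A and S were thus within a few percentage points of those of expressed probes, and I probes lay between both backgrounds. Differences between the RAS lines were called for 109 of the 143 S members, 18 of the 21 A members and 12 of the 13 I members (76.2%, 85.7% and 92.3%), beside 59.9%, 60.9% and 54.4% of the S, A and I probes tested. These shares too include members that passed the signal minimum through 1 line.

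The brightest A members were GI_23510363-A, GI_21493023-A and GI_6042201-A. GI_21493023-A read 884.2 and 979.6 in Ha-RAS, 486.4 and 406.8 in Ki-RAS, and 66 and 66.1 in control cells, 1.75-fold higher in Ha-RAS (adjusted p = 0.00233). The brightest I members were GI_19747270-I, GI_14149903-I and GI_29893810-I. GI_14149903-I read 684.4 and 794.8, 161.5 and 148.5, and 57.9 and 57.8, and was 5.09-fold higher in Ha-RAS (adjusted p = 1.7e-06). GI_29893810-I read 286 and 227.8, 359.2 and 427.9, and 76.4 and 83.1, and was 2.15-fold higher in Ki-RAS cells (adjusted p = 0.000348). For each of these 3 probes the arrays of the RAS lines did not overlap, from which nothing is read without a share over all probes.

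A and I probes that carry the same GI number can be set side by side. For 8 members the array held such a partner, and none of the partners was a member. In 5 of the pairs the A probe was the member and the I probe was detected on no array. GI_21493023-I, for example, read 80.6 and 79.7 in Ha-RAS, 70.4 and 79.6 in Ki-RAS, and 61.6 and 68.8 in control cells, beside the A values above. The I partners of GI_19747268-A, GI_19924146-A, GI_33469936-A and GI_11497611-A read between 51.1 and 86.4 on every array. Of these A members, GI_19924146-A read 227.2 and 196.7 in Ha-RAS, 252.6 and 228.3 in Ki-RAS, and 67 and 75.1 in control cells. In the other 3 pairs the I probe was the member and the A probe was detected on 1 or both control arrays. GI_31795537-I read 193.4 and 163.6 in Ha-RAS, 100 and 89 in Ki-RAS, and 67.5 and 56.9 in control cells. The all-isoform probe GI_31795537-A read 783.7 and 625.4, 276.9 and 320.8, and 217.9 and 235.3. It was detected on every array, so for this number the I probe alone has the switched-on pattern. Both were higher in Ha-RAS than in Ki-RAS cells, by log2 differences of 1.22 ± 0.20 SE and 1.03 (adjusted p = 0.000458 and 0.000454). The other A partners missed the pattern narrowly. GI_33598921-A read 139.9 and 123.7 in Ha-RAS, 182.3 and 180 in Ki-RAS, and 85.4 and 69.2 in control cells, where it was detected on 1 array. GI_24430182-A read 138.7 and 129.1, 130.9 and 121.3, and 83.4 and 85.3, and was also detected on 1 control array.

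Probes with GI numbers that differ by 2 gave 2 further A and I pairs in which both are members. GI_19747270-I read 875.5 and 616.7 in Ha-RAS, 427.7 and 530.6 in Ki-RAS, and 62.7 and 59 in control cells, and GI_19747268-A read 621.4 and 484.6, 335.1 and 412.3, and 69.7 and 66. Their differences between the RAS lines were alike and not called (log2 0.33 and 0.28, adjusted p = 0.158 and 0.206, intervals -0.09 to 0.74 and -0.12 to 0.67). Both were called with arrays set to a common median (adjusted p = 0.0185 and 0.0231) and with no normalization (0.0163 and 0.0205). GI_21493021-I and GI_21493023-A were both higher in Ha-RAS cells, by 0.85 and 0.81. Whether these numbers stand for 1 gene is not given in the files. If they do, the probes of a pair are not separate transcripts in the counts above.

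The members just inside the signal minimum were GI_33354248-S, GI_31377590-S and GI_42734380-S, with mean RAS signals of 121.3, 121.8 and 122.4, and the probes just outside were GI_27481547-S, GI_21704282-S and GI_22547230-S, at 119.6, 119.1 and 118.8. GI_33354248-S read 120.7 and 118.8 in Ha-RAS, 120.5 and 125.1 in Ki-RAS, and 68.5 and 68.3 in control cells. Its normalized log2 difference of -0.44 ± 0.15 SE in favour of Ki-RAS was called (adjusted p = 0.0248) but lost under 8 other settings, with adjusted p from 0.051 to 0.698. GI_31377590-S was higher in Ki-RAS cells (log2 -0.80 ± 0.19 SE, adjusted p = 0.00475, and 0.092 with no normalization) and GI_42734380-S in Ha-RAS cells, by a log2 difference of 1 (adjusted p = 0.000255). A total of 76 probes met every other condition but were detected on 1 of the control arrays.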

How the data were processed

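Total RNA of 6 Caco-2 samples was amplified and labelled with biotin for Illumina bead arrays, per the labels. The deposited signal and the spread between beads are linear intensity values, and the detection score is as the authors deposited it, per the file headers. BeadStudio 1.5.13 is named in the submitters' processing notes, and the design text says that the authors left the values unnormalized. The sources used here do not say whether background was subtracted. The series table equalled the array files (0 differing cells), and 4 probes whose IDs do not start with GI_ were left out.

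Background was corrected with nec of limma 3.58.1 (R 4.3.3) from 1 minus the detection score, with offset 16, followed by log2 and quantile normalization. The fit took the 10848 probes detected on both arrays of some line, with 3 line means and eBayes (3 residual and 7.1 prior degrees of freedom). Tests were two-sided with Benjamini-Hochberg adjustment over all of them. Precision is limited by the number of arrays, 2 per line. The members passed this filter by their rule. The members, lists and tests were chosen with earlier results of these data known.

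Named members were the 10 brightest, the 5 largest called differences each way, the 5 smallest differences among the 30 brightest, the 3 brightest of suffix A and of suffix I, and the 3 on each side of the signal minimum. A fold over control sets the line's mean log2 value against the mean of, per control array, the higher of the lowest detected level and the probe's own, on corrected and on deposited values. For 1 member the corrected Ha-RAS fold was under 1 and is not given. Alternatives covered background, normalization, filter, spread estimate, arrays, replicate letter and thresholds. The median size of the difference, the folds on deposited signals and the split by the signal minimum in each line were added on seeing the data. The procedure was tested on simulated data.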

Additional observations from a re-analysis of the deposited data

Results flagged for a closer look

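For 21 of the 25 named members the change against control differed between the Ha-RAS and Ki-RAS lines. The test was the limma test of the Ha-RAS minus Ki-RAS difference, which equals the difference of both changes. The 5 largest called differences each way were named because this same test called them, so their place here was set in advance. Another 5 were named for the smallest differences among the 30 brightest, and the named members not called are all among these. The count of 21 was thus largely set by the naming. The test called 78.5% of all members and 59.7% of all probes tested. Higher in Ha-RAS cells on the log2 scale were GI_25121964-S by 5.70, GI_5453789-S by 5.44, GI_16753209-S by 4.76, GI_6042201-A by 3.91, GI_34147546-S by 3.76, GI_6006015-S by 3.43, GI_14149903-I by 2.35, GI_42734380-S by 1, GI_21493023-A by 0.81 and GI_31543536-S by 0.77. Lower in Ha-RAS than in Ki-RAS cells were GI_39725680-S at -5.85, GI_19923110-S at -4.56, GI_19747282-S at -4.44, GI_25777651-S at -3.64, GI_4557440-S at -3.63, GI_42476152-S at -3.23, GI_29893810-I at -1.11, GI_7705972-S at -0.93, GI_31377590-S at -0.80, GI_23510363-A at -0.55 and GI_33354248-S at -0.44. With 2 arrays per line no sample could be tested as standing apart from its group.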

How the results depend on the processing

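The count of members called between the RAS lines was 139, and 126 to 143 under the 16 other settings of the fit, with no call turning direction among those kept. It was 137 with the replicate letter as a replicate block. The letters did not pair the samples (correlations of the A minus B difference between lines of -0.173, -0.177 and 0.104). With a 2-fold difference required as well it was 91, of which 44 were higher in Ha-RAS. With 1 array left out it was 126 to 141, with 62 to 69 higher in Ha-RAS and 64 to 72 in Ki-RAS cells. The median difference moved from -0.01 to 0.28 with arrays set to a common median and to 0.34 with no normalization, and the median size from 1.07 to 0.76 with an offset of 50 and to 0.69 without background correction, on the log2 scale. The counts of members at least 2-fold, 4-fold and 8-fold over control in both lines fell from 83, 40 and 13 to 48, 14 and 5 on the deposited signals. The share of members called stayed above that of probes detected on all arrays in each of the 16 settings of the fit (71.2% to 80.8% against 44.7% to 62.9%), with the members that passed the minimum through 1 line included.

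The number of members depended on the rule. It was 79 with a stricter score on the RAS arrays (every array at a score of 1), 117 with a signal minimum of 150, 244 with 100 and 298 with none, and 122 with a score threshold of 0.95, of which 112 were among the 177. With 1 array left out it was 170 to 235, the highest without control sample B. GI_33354248-S lost its call under 8 settings and GI_31377590-S without normalization (adjusted p = 0.092).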

Other observations

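The reverse pattern, detected on both control arrays with a mean of at least 120 and on no RAS array, held 176 probes, beside the 177 members. Of the 4 pairs of members whose GI numbers differ by 2, GI_23308518-S and GI_23308520-S differed in sign between the RAS lines (log2 0.25 and -1.95), and the pair GI_33469936-A and GI_33469938-A was higher in Ha-RAS cells (1.49 and 1). Among I members, GI_38327656-I read 452.5 and 443.6 in Ha-RAS, 103.3 and 90.3 in Ki-RAS, and 73.5 and 63.6 in control cells. GI_38327657-A, whose number differs by 1, read 6671.1 and 5553.5, 1717.6 and 1724.6, and 578.2 and 606.4, so it was detected on every array. These probes were picked after their values were seen.

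The bead columns gave the spread within an array. On the RAS arrays the SD between beads was a median 4.76% of a member's signal, and the standard error over beads had a median of 0.743% and a highest value of 2.97%. Of the 1062 member signals, 26 came from under 20 beads, in 10 members, among them GI_25121964-S, GI_39725680-S and GI_16753209-S. The deposited signal was higher on sample A than on sample B of the Ha-RAS line for 147 of the 177 members, and for 99 after normalization.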
